A study of Mus musculus with 12 samples.

Results

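Astrocytes of the dentate gyrus at postnatal day 7 (P7) were chosen by marker transcripts among single cells of 3 libraries. A cell was taken as an astrocyte when it held at least 1 UMI (unique molecular identifier, 1 counted RNA molecule) of at least 3 of the 7 genes *Aqp4*, *Aldh1l1*, *Agt*, *Slc7a10*, *F3*, *Cxcl14* and *Hsd11b1*. It also had to hold at most 2 of the 8 radial glia genes *Hopx*, *Frzb*, *Lpar1*, *Wnt8b*, *Tfap2c*, *Gdf10*, *Riiad1* and *Thrsp*, and no UMI of *Eomes* or *Pdgfra*. Of 24213 cells that had over 500 genes and under 15% of their UMIs from mitochondrial genes, 1227 met this rule. These were 450 of the 10997 wild-type cells, 311 of the 6685 cells with *Larp7* f/f;nestin-Cre and 466 of the 6531 cells with *Larp7* f/f;Emx1-Cre.

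The study asked how loss of *Larp7* changes the developing dentate gyrus of the mouse. Each genotype was 1 library of micro-dissected tissue at P7, made from 3 to 4 gyri of littermates. Wild-type stands for *Larp7*-floxed mice without Cre, so that floxed *Larp7* alleles are common to all 3 genotypes. Nestin-Cre recombines in many brain cells and in some other organs, and Emx1-Cre in neural stem and progenitor cells that express *Emx1*. The labels disagree on the mutants: the library titled for nestin has the genotype entry *Larp7* f/f;Emx1-Cre, and the library titled for Emx1 has the entry *Larp7* f/f;Nestin-Cre. The study's methods give more cells for nestin-Cre than for Emx1-Cre, and the libraries titled so hold 7177 and 6821 barcodes. The titles were followed, and "nestin-Cre" and "Emx1-Cre" astrocytes are those of the libraries so titled. With 1 library per genotype, no difference between genotypes has a replicate check and no test was made, and genotype, litter and library cannot be told apart. All intervals are at 95% and hold only the error of counting.

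LARP7 binds and stabilizes the 7SK small nuclear RNA, which with HEXIM proteins binds and inhibits P-TEFb, the kinase CDK9 with a cyclin T that releases paused RNA polymerase II. Astrocytes take up glutamate, buffer potassium and water, supply neurons with lipids and secrete factors that shape synapses. They arise from radial glia, with which they share many transcripts.

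The libraries held 28918491, 26689878 and 28537738 UMIs in the order wild-type, nestin-Cre and Emx1-Cre, which is kept wherever 3 values follow each other. Their astrocytes held 1912946, 1547859 and 2332557 of these UMIs. The median astrocyte had 4194 UMIs (3973 to 4352) in wild-type, 4760 (4421 to 5027) in nestin-Cre and 4880 (4638 to 5110) in Emx1-Cre. Mutant astrocytes were thus deeper by a ratio of 1.13 (1.02 to 1.27) and 1.16 (1.07 to 1.29). These ratios depended on the rule and left their intervals in other settings. With 2 markers enough they were 1.38 and 1.44, and with none of the 8 radial glia genes allowed 1.5 and 1.55. Over all cells that passed the filter the medians were 1782, 3644 and 3873 UMIs, so that wild-type astrocytes stood further above their library than mutant ones. The median number of genes per astrocyte was 1936, 2158 and 2173. After each cell was thinned to 1500 UMIs, with 27, 9 and 18 shallower astrocytes left out, it was 918, 931 and 924.

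Astrocytes made up 4.09% (3.73 to 4.48) of wild-type, 4.65% (4.16 to 5.18) of nestin-Cre and 7.14% (6.52 to 7.79) of Emx1-Cre cells. These shares moved with the depth of the cells and with the rule. Among the 6212, 6088 and 6092 cells with at least 1500 UMIs, an alternative chosen after the data were seen, they were 6.81%, 4.96% and 7.35%, so that leaving out shallow cells was enough to turn the order of wild-type and nestin-Cre. When these same cells were also thinned to 1500 UMIs before the rule was read, the shares were 2.77%, 2.00% and 2.76%. With a minimum of genes per cell higher than 500 by a factor of 2, they were 7.13%, 5.04% and 7.35%, and with 2 markers enough the shares were 8.30%, 6.96% and 10.1%. Emx1-Cre stood above nestin-Cre in each of these settings, and the place of wild-type differed between them. No cell doublet was removed. Of the astrocytes, 39 (8.67%), 38 (12.2%) and 46 (9.87%) also reached the marker number of another cell class, mostly that of granule lineage neurons with 31, 38 and 35 cells. The libraries shared 23 barcodes between wild-type and nestin-Cre, 19 between wild-type and Emx1-Cre and 11 between the mutants, and no barcode was an astrocyte in more than 1 library.

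The genes of the rule describe how the cells were chosen and support nothing beyond it. *Aqp4*, the water channel of astrocyte endfeet, had 1071, 1175 and 1402 CPM (UMIs per 1000000 UMIs summed over astrocytes). *Aldh1l1*, a folate enzyme, had 310, 255 and 293 CPM, and the neutral amino acid transporter *Slc7a10* had 189, 207 and 195 CPM. The chemokine *Cxcl14* was at 313, 265 and 254 CPM, and the tissue factor gene *F3* at 124, 158 and 163 CPM. Angiotensinogen, *Agt*, stood at 93.6, 166 and 99.0 CPM, highest in nestin-Cre, and the glucocorticoid-activating enzyme *Hsd11b1* at 86.8, 78.2 and 63.4 CPM. *Aqp4* was detected in 87.6%, 89.1% and 91.6% of astrocytes, and in 62.9%, 66.6% and 69.6% at 1500 UMIs per cell. Microglia, which lack this channel, held an *Aqp4* UMI in 14.9%, 4.51% and 6.43% of cells, and in 9.77%, 1.78% and 2.26% when thinned, with 331, 60 and 15 shallower cells left out. Median depths of these microglia were 1863, 3274 and 3408 UMIs.

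Cells just inside the rule, with exactly 3 markers, numbered 220, 114 and 192, and those just outside it, with exactly 2, numbered 463, 154 and 191. Median UMIs were 3784, 4066 and 4588 inside and 1962, 3494 and 3870 outside. Summed over 42 astrocyte genes that the rule did not use, the level was 63838, 62773 and 63416 CPM inside and 41214, 44900 and 43058 CPM outside. All 7 markers were found together in 3, 14 and 8 cells. None of the 8 radial glia genes was detected in 52, 49 and 66 astrocytes, 1 in 232, 126 and 220, and 2 in 166, 136 and 180. The genes allowed through were mainly *Hopx*, a homeodomain protein, at 704, 578 and 631 CPM, and *Thrsp*, a lipogenic regulator, at 207, 218 and 172 CPM. All 8 together summed to 930, 811 and 825 CPM. *Frzb*, *Lpar1*, *Gdf10*, *Tfap2c*, *Wnt8b* and *Riiad1* stood between 0 and 10.3 CPM in every library.

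The name was checked on the same 42 astrocyte genes outside the rule. They summed to 71000 CPM (70623 to 71379) in wild-type astrocytes, 75670 (75238 to 76105) in nestin-Cre and 72851 (72505 to 73199) in Emx1-Cre. In all other cells they summed to 15300, 12275 and 12618 CPM, and in radial glia-like cells, with at least 3 of the 8 radial glia genes, at most 2 astrocyte markers and no *Eomes* or *Pdgfra*, to 25386, 31471 and 27924 CPM. The astrocyte name held by this measure in every library. The most abundant of these genes was *Apoe*, the lipid carrier, with 18836, 18935 and 19283 CPM in astrocytes and 3845, 3738 and 3633 CPM in radial glia-like cells. The glutamate transporter *Slc1a2* had 4098, 5815 and 4888 CPM against 1239, 2224 and 1705. *Slc4a4*, the bicarbonate transporter, separated the classes further, with 1107, 1202 and 1200 CPM against 85.3, 59.7 and 71.4. *Slc1a3*, the glutamate transporter that radial glia also carry, had 3058, 2990 and 2869 CPM against 2287, 3307 and 2666 and did not separate them. The genes of the list that were lower in astrocytes than in radial glia-like cells in all 3 libraries were *Itih3*, *Fam107a*, *Nfia* and *Sox9*. Their log2 ratios were -0.98, -1.64 and -1.06 for *Itih3*, -1.51, -0.30 and -0.68 for *Fam107a*, -0.35, -0.28 and -0.26 for *Nfia* and -0.08, -0.27 and -0.15 for *Sox9*. *Nfia*, with 656, 726 and 748 CPM, was also below all other cells, at 1217, 1122 and 1091 CPM. These 4 genes and *Slc4a4* were chosen after their values were seen.

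**Figure D1:**
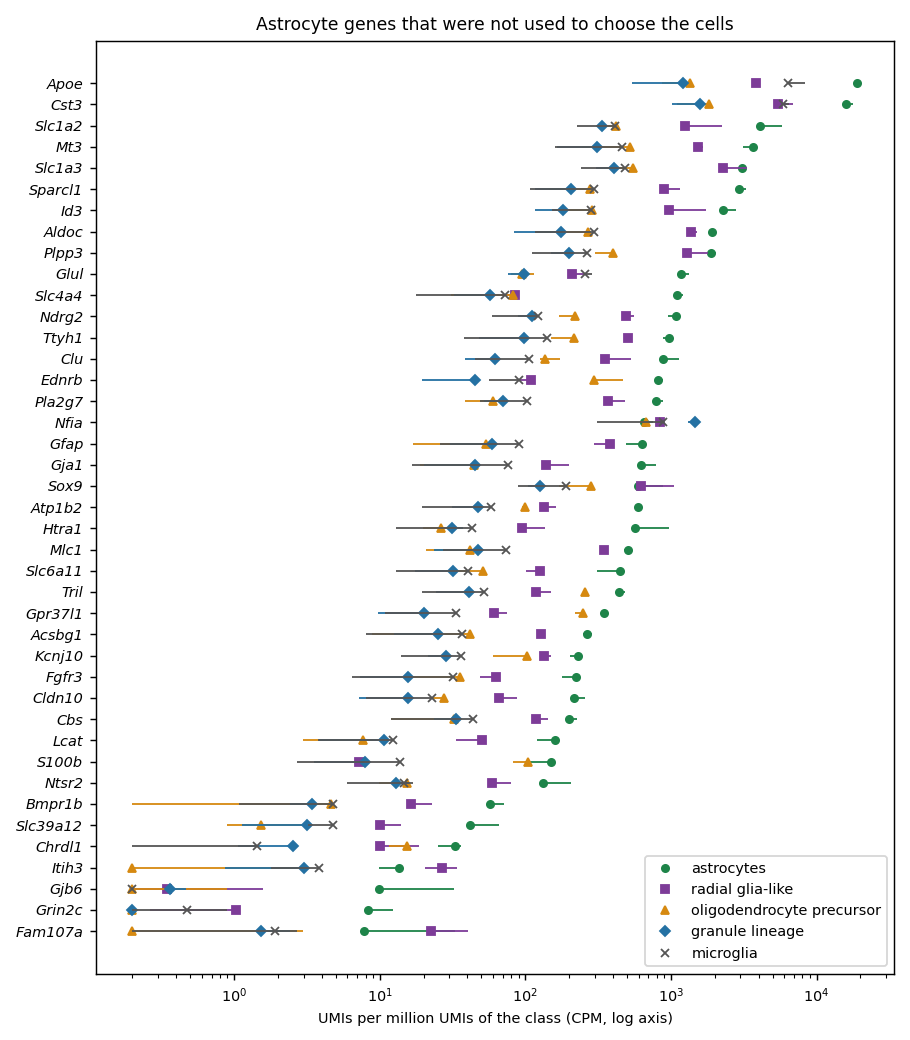
Levels of 41 astrocyte genes that the rule did not use, in CPM of the class (log axis), in 5 cell classes. Points are the wild-type library, lines span the 3 libraries, and levels of 0 are drawn at the left end.

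Against all other cells, with genes of the rule left out, 12 genes were named for the largest excess in the library where it was smallest. *Gjb6*, which encodes the gap junction protein connexin 30, had 9.93, 32.3 and 18.0 CPM in astrocytes and 0.738, 1.09 and 1.08 CPM in all other cells, at least 13.5 times as much in every library. *Fgf1*, a growth factor without a classical signal peptide, had 49.1, 49.1 and 45.9 CPM against 4.85, 3.15 and 4.20. *Igfbp2*, a secreted binding protein of insulin-like growth factors, was the most abundant of the 12, with 785, 643 and 688 CPM against 92, 63.7 and 56.9. *Pdyn*, the precursor of dynorphin peptides, had 35.5, 18.1 and 30.0 CPM against 3.81, 0.849 and 2.47. Secreted protease inhibitors were among them as well, with *A2m* at 16.2, 20.0 and 22.3 CPM against 1.75, 1.25 and 1.77, and *Serpina3n* at 30.3, 37.5 and 29.6 CPM against 2.52, 2.67 and 3.47. The mitochondrial dehydrogenase *Adhfe1* had 73.7, 49.1 and 58.7 CPM against 8.54, 3.60 and 5.05. The remaining genes, *Egfl6*, *Alpl*, *Kirrel3*, *Gm9881* and *4932438H23Rik*, lay between 11.0 and 26.5 CPM in astrocytes and between 0.777 and 2.37 CPM elsewhere.

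Radial glia-like cells are the class most like astrocytes, and the rule used part of this contrast, so the values describe it. Among 10273 genes with at least 100 UMIs over both classes, 339 (3.30%) were at least 2-fold higher in astrocytes in all 3 libraries and 494 (4.81%) at least 2-fold lower. The rule supplied 7 of the higher and 7 of the lower genes. Of 41 astrocyte genes outside the rule, 23 were higher and 0 lower. Of 22 genes for secreted matrix and synapse-organising factors, 12 were higher and 0 lower, as were 7 and 0 of 15 genes of neurotransmitter uptake and conversion. The median log2 ratio over all 10273 genes was -0.20, -0.21 and -0.23.

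Of the 8 genes with the largest excess over radial glia-like cells, *Hsd11b1* belonged to the rule. *Igfbp2* had 32.3, 28.4 and 14.9 CPM in radial glia-like cells, with log2 ratios of 4.60, 4.50 and 5.53. *Meis2*, a homeobox transcription factor, had 64.8, 55.6 and 68.6 CPM in astrocytes and 3.78, 3.79 and 3.20 CPM in radial glia-like cells. *A2m* had 0.688, 0.948 and 0.799 CPM there. *Frmpd1*, *Gm266*, *Gm9881* and *Glycam1* completed the 8, each at least 14.3 times as high in astrocytes with a count under 3 UMIs set to 3. Outside the rule *Mir124-2hg*, the host transcript of a miR-124 copy, came next with 14.6, 18.1 and 25.7 CPM against 1.03, 0.948 and 1.07. The order went by the smallest of the 3 ratios, so an excess of *Meis2* and *Igfbp2* over radial glia-like cells in each library follows from their choice.

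The 8 genes with the largest deficit against radial glia-like cells held 6 of the rule, *Gdf10*, *Tfap2c*, *Wnt8b*, *Frzb*, *Lpar1* and *Riiad1*. The others were *Shroom3*, an actin regulator of apical constriction, with 2.61, 1.94 and 2.57 CPM in astrocytes against 38.2, 49.0 and 54.1, and *Cpm*, carboxypeptidase M. *Cpm* had 4, 0 and 3 UMIs in astrocytes against 28.2, 21.8 and 20.8 CPM in radial glia-like cells. With its count of 0 in nestin-Cre astrocytes set to 3, *Cpm* was 11.2-fold lower there. The interval of that 0 reached 2.38 CPM. Outside the rule the order went on with *Hopxos*, transcribed opposite to *Hopx*, *Rgs5*, *Tesc*, *Wipf3*, *Cox4i2* and *Tmem132c*. *Rgs5*, a regulator of G protein signalling, had 23.5, 17.4 and 37.7 CPM against 300, 239 and 385, and *Tesc*, a calcium-binding protein, had 10.5, 7.75 and 7.29 CPM against 109, 74.6 and 91.1.

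Cell cycle genes were low in astrocytes. Of 38 S phase genes described, 25 were at least 2-fold lower than in radial glia-like cells in all 3 libraries and 0 higher, and of 51 G2/M phase genes, 34 were lower and 0 higher. Summed over the G2/M list, astrocytes had 2122, 2243 and 2087 CPM, and radial glia-like cells 5601, 4442 and 5293 CPM. The S phase list summed to 766, 850 and 806 CPM against 1989, 1824 and 2034 CPM. Astrocytes of all 3 libraries were thus low in both lists.

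Between genotypes, genes of the rule were left out and a gene was described when it had at least 100 UMIs over the astrocytes of the 2 libraries compared. In nestin-Cre against wild-type astrocytes, 394 of 5133 genes (7.68%) differed at least 1.5-fold, 255 (4.97%) higher and 139 (2.71%) lower. In Emx1-Cre against wild-type, 257 of 5828 genes (4.41%) did, 165 (2.83%) higher and 92 (1.58%) lower. In nestin-Cre against Emx1-Cre, 163 of 5601 genes (2.91%) did, 92 (1.64%) higher and 71 (1.27%) lower. Over all genes described, these comparisons had median log2 ratios of 0.01, 0.02 and 0.00, and CPM, scaled to each library's own total, cannot show a shift of all genes together. The comparisons with wild-type share its astrocytes. Most genes past the limit had few UMIs, and with at least 300 UMIs required 43 higher and 33 lower genes remained in nestin-Cre and 13 and 17 in Emx1-Cre. With astrocytes thinned to 1500 UMIs the counts were 69 and 57 in nestin-Cre and 46 and 45 in Emx1-Cre, where higher and lower genes were near equal in number.

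*Larp7* was lower in astrocytes of both mutant libraries. It had 25.6 CPM (19.0 to 33.9, 49 UMIs) in wild-type, 3.88 CPM (1.42 to 8.44, 6 UMIs) in nestin-Cre and 8.15 CPM (4.90 to 12.7, 19 UMIs) in Emx1-Cre. The log2 ratios to wild-type were -2.72 (-4.24 to -1.50) and -1.65 (-2.50 to -0.86). The interval of nestin-Cre over Emx1-Cre, -2.68 to 0.31, included 0, so that a difference between the mutants was not detectable at this depth. *Larp7* was also lower in radial glia-like cells, with log2 ratios of -2.27 and -2.44, and in granule lineage cells, with -2.44 and -2.06. In the same libraries, microglia, which do not arise from neural progenitors, had 59.5, 35.1 and 36.6 CPM of *Larp7*, with log2 ratios of -0.76 (-1.22 to -0.32) and -0.70 (-1.25 to -0.18). Sequenced 3′ ends can lie outside the deleted exon, so the level of *Larp7* does not by itself check the deletion or the labels.

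The partners of LARP7 differed less. *Mepce*, whose product caps 7SK RNA, had 14.6, 29.7 and 27.4 CPM, with log2 ratios of 1.02 (0.31 to 1.75) and 0.91 (0.24 to 1.60). It was below the 100 UMIs required in both comparisons and is not counted in the list. *Hexim1*, the P-TEFb inhibitor held by 7SK, had 48.6, 69.1 and 62.6 CPM, and its ratio was 0.51 (0.09 to 0.92) in nestin-Cre and 0.36 (-0.02 to 0.76) in Emx1-Cre. The kinase gene *Cdk9* had 51.2, 31 and 45.9 CPM and was 1.65-fold lower in nestin-Cre. The cyclin gene *Ccnt2* had 45.5, 43.3 and 27.4 CPM and was 1.66-fold lower in Emx1-Cre. *Ccnt1* and *Hexim2* had log2 ratios between -0.27 and 0.11. *Larp7* itself and *Hexim2* were, like *Mepce*, below the 100 UMIs and are not among the 5 genes of the list described in each comparison. Of these 5, 0 were at least 1.5-fold higher and 1 lower in each mutant, with medians of -0.02 and -0.16. The lower gene was *Cdk9* in nestin-Cre and *Ccnt2* in Emx1-Cre.

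The genes named next for both mutants needed 100 UMIs over the 3 libraries together. Of them only *Stmn2*, *Txnip*, *Neurod1*, *Ly6h*, *Fam212b*, *E330013P04Rik*, *Olig2*, *Slc13a3*, *Hist1h2bc* and *Ormdl2* reached 100 in each comparison and so stand in both counts above. Genes higher in both mutant libraries were led, by the smaller of their ratios, by *Gm7967*, a predicted gene, with 8.89, 34.9 and 33.0 CPM and log2 ratios of 1.97 (1.16 to 2.85) and 1.89 (1.12 to 2.74). In radial glia-like cells its ratios were 0.68 (-0.41 to 1.84) and 1.13 (0.15 to 2.22). *Txnip*, which binds and inhibits thioredoxin and limits glucose uptake, had 28.2, 108 and 72.5 CPM and ratios of 1.93 (1.48 to 2.40) and 1.36 (0.91 to 1.83). It was also higher in radial glia-like cells, by 1.61 and 1.07, and differed little in granule lineage cells, with 0.10 and 0.26. *Ucp2*, a mitochondrial carrier, had 11.0, 30.4 and 28.7 CPM in astrocytes, and *Col4a3bp*, which carries ceramide from the endoplasmic reticulum to the Golgi, had 11.0, 29.7 and 24.4 CPM. *Clmn*, a membrane protein with calponin homology domains, had 9.41, 33.6 and 28.3 CPM. These 5 genes had intervals above 0 in both mutants, but they were chosen by these ratios, which share the wild-type counts. Without the astrocytes that reached another class the 5 genes had log2 ratios of at least 1.20. Several were higher in other classes as well. In radial glia-like cells *Ucp2* had 1.11 and 1.07 and *Clmn* 1.37 and 0.81. In granule lineage cells *Ucp2* had 0.63 and 0.93, *Clmn* 1.78 and 1.04, and *Col4a3bp* 0.84 and 0.72. *Col4a3bp* had 0.29 and 0.20 in radial glia-like cells and *Gm7967* -0.92 and -0.09 in granule lineage cells, with intervals that included 0.

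Among the same 12 genes were several that neurons carry. *Neurod1*, a transcription factor of granule neuron differentiation, had 44.4, 156 and 108 CPM, and *Stmn2*, a neuronal microtubule regulator, 30.3, 95 and 82.3 CPM. *Ank3*, the ankyrin of the axon initial segment, had 11.5, 49.1 and 31.3 CPM. The axonal membrane protein *Islr2* had 7.32, 37.5 and 19.7 CPM, the guidance cue *Sema3c* 9.93, 33.6 and 37.3 CPM, *Ly6h* 16.7, 49.1 and 38.6 CPM and the microtubule-associated *Map7d2* 10.5, 24.6 and 23.6 CPM. The 13 granule lineage genes summed to 1393 CPM (1341 to 1447), 2346 (2271 to 2424) and 1845 (1790 to 1901) in astrocytes, with *Sox4* the most abundant at 595, 767 and 685 CPM and *Eomes* at 0 by the rule. Of 10 described, 8 were at least 1.5-fold higher in nestin-Cre and 4 in Emx1-Cre, 0 were lower, and the medians were 1.14 and 0.49.

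Leaving out the astrocytes that also reached another class takes out cells by their granule lineage markers, so lower levels of such genes follow in part from the setting itself. The medians of the granule lineage list were then 0.56 and 0.09. *Neurod1* had log2 ratios of 1.27 in nestin-Cre and 0.34 in Emx1-Cre, where all astrocytes gave 1.81 and 1.28. *Stmn2* had 1.25 and 0.48, against 1.65 and 1.44 in all, and *Ank3* 0.84 and 1.07, against 2.09 and 1.44. *Islr2* did not go down with them, at 3.33 and 1.96, but it had only 14, 58 and 46 UMIs over all astrocytes. *Sema3c* stood at 1.5 and 1.15, and when the rule was read at 1500 UMIs its ratio in nestin-Cre turned to -1.16. Granule lineage cells themselves had *Neurod1* ratios of 0.85 (0.82 to 0.88) and 0.66 (0.63 to 0.70). Astrocytes that reached another class had medians of 3667, 6560 and 6738 UMIs, against 4203, 4530 and 4730 in the other astrocytes. They were thus deeper than the others in both mutants and shallower in wild-type. What part cells of mixed content and free RNA had in these differences was not tested.

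Genes lower in both mutant libraries included *Olig2*, a transcription factor of oligodendrocyte and astrocyte precursors, with 170 CPM (152 to 189), 60.7 (49.1 to 74.3) and 89.6 (77.9 to 103). Its log2 ratios were -1.48 (-1.83 to -1.15) and -0.92 (-1.18 to -0.67), and -1.48 and -1.02 without astrocytes that reached another class. *Olig2* was lower in the other classes as well, with -0.67 and -0.27 in oligodendrocyte precursor cells, -1.27 and -2.20 in radial glia-like cells, and -1.41 and -1.01 in granule lineage cells. *Hist1h2bc*, a gene for histone H2B, had 248, 138 and 123 CPM and ratios of -0.85 (-1.09 to -0.62) and -1.02 (-1.23 to -0.80). In granule lineage cells it had -1.65 and -1.58. Neither difference was thus limited to astrocytes.

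*Fam212b*, whose product inhibits a p21-activated kinase, had 79.5, 33.6 and 38.6 CPM, with log2 ratios of -1.24 (-1.73 to -0.78) and -1.04 (-1.43 to -0.66). It was also lower in radial glia-like cells, with -1.49 and -1.0, and in granule lineage cells it had -0.53 and -0.09. All the genes named next were lower in granule lineage cells of both mutants too. There *Izumo4* had -1.51 and -1.20, *Slc13a3* -1.91 and -1.01, and *Mbd6* -0.25 and -0.17. *Slc13a3*, a carrier of dicarboxylates, had 39.2, 18.7 and 21.4 CPM, and the sphingolipid synthesis regulator *Ormdl2* 53.8, 29.7 and 31.3 CPM. *Fuz*, a planar polarity effector needed for cilia, had 31.9, 18.1 and 15.4 CPM, and the sorting nexin *Snx32* 29.8, 16.2 and 16.3 CPM. *Izumo4* had 35.5, 14.2 and 15 CPM, *E330013P04Rik* 40.8, 20.7 and 14.6 CPM, and *C030037D09Rik* 25.6, 12.3 and 13.7 CPM. *Pcbd2*, a pterin dehydratase, had 28.8, 15.5 and 16.7 CPM and *Mbd6*, a methyl-CpG-binding domain protein, 27.7, 16.2 and 15 CPM. With astrocytes thinned to 1500 UMIs, *Pcbd2* turned to 0.07 and 0.38 and *Izumo4* in Emx1-Cre to 0.00. With none of the 8 radial glia genes allowed, *Slc13a3* in nestin-Cre turned to 0.45, and in Emx1-Cre *Fam212b* turned to 0.01, *Snx32* to 0.20 and *Pcbd2* to 0.39. *C030037D09Rik* in nestin-Cre turned to 0.43 with the rule read at 1500 UMIs.

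**Figure D2:**
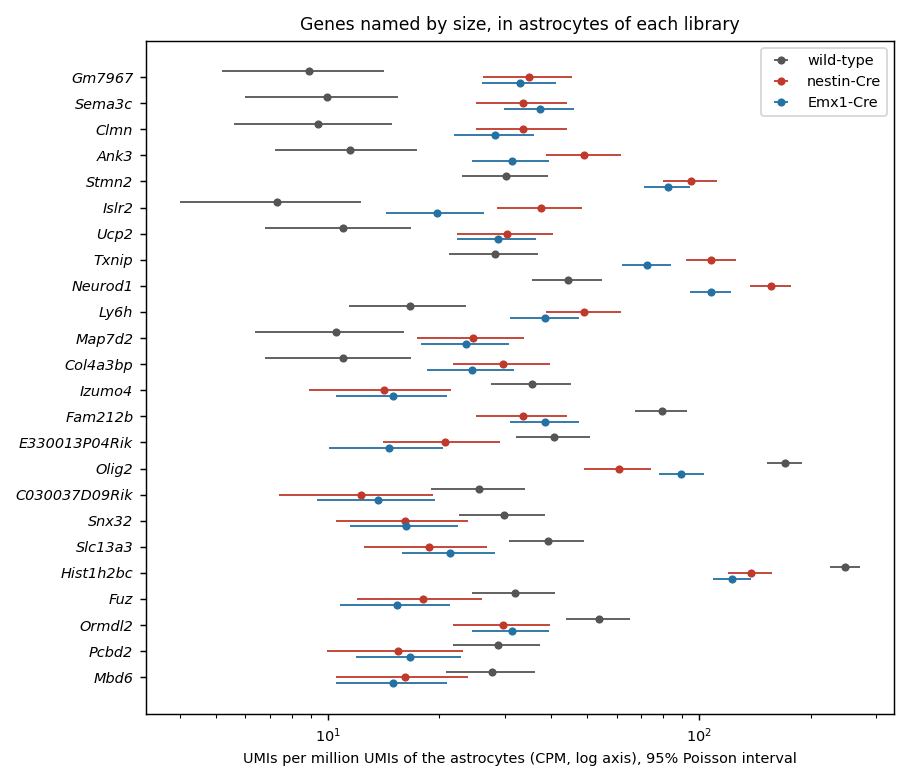
Levels of the 12 genes highest and the 12 lowest in both mutant libraries, in CPM of the astrocytes (log axis) with 95% Poisson intervals. Each point is 1 library.

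The astrocyte genes outside the rule showed no common direction. Of 38 described in each comparison, 3 were at least 1.5-fold higher and 1 lower in nestin-Cre, and 2 were higher and 0 lower in Emx1-Cre, with medians of 0.04 and 0.07. The higher genes, named after their values were seen, were *Htra1*, *Ntsr2* and *Slc39a12* in nestin-Cre and the last 2 in Emx1-Cre. *Ntsr2*, a neurotensin receptor, had 132, 201 and 206 CPM, and the zinc transporter *Slc39a12* 41.8, 65.9 and 65.6 CPM. *S100b*, a calcium-binding protein of mature astrocytes, was the lower gene, with 151, 98.8 and 137 CPM, and its ratio in nestin-Cre turned to 0.14 when the rule was read at 1500 UMIs. With none of the 8 radial glia genes allowed, *Ntsr2* in Emx1-Cre turned to -0.37. *Cst3*, the second gene by abundance and a cysteine protease inhibitor, had 15820, 17872 and 15937 CPM.

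In neurotransmitter uptake and conversion, 0 of 14 genes differed at least 1.5-fold in either mutant, and the medians were -0.03 and 0.10. Among the 4 most abundant, *Slc1a2* came closest in nestin-Cre, with log2 ratios of 0.50 (0.46 to 0.55) and 0.25 (0.21 to 0.30). The GABA transporter *Slc6a11*, chosen after its values were seen, was as near the limit on the lower side, with 444, 312 and 340 CPM and ratios of -0.51 (-0.67 to -0.35) and -0.38 (-0.53 to -0.24). *Slc1a3* had -0.03 and -0.09, the glutamine synthetase gene *Glul* 1179, 1154 and 1336 CPM, and the glutamate dehydrogenase gene *Glud1* 946, 1182 and 1177 CPM. The ion, water and gap junction list also had 0 of 10 genes past the limit in both mutants, with medians of -0.03 and -0.09. *Gjb6* had too few UMIs to be counted, and its log2 ratios were 1.70 (0.91 to 2.55) and 0.86 (0.04 to 1.72). *Gja1*, for connexin 43, had 619, 790 and 668 CPM, and the chloride channel gene *Ttyh1* 975, 879 and 904 CPM.

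Genes of cholesterol and fatty acid synthesis and transport had medians of -0.09 and -0.14. Of 30 described in nestin-Cre, 1 was higher and 2 lower, and of 31 in Emx1-Cre 0 passed the limit. *Fabp7*, the brain fatty acid-binding protein, had 15920, 12447 and 13977 CPM, and *Fabp5* 4727, 5157 and 5473 CPM. The desaturase *Scd2* had 2010, 1785 and 1822 CPM and the sterol synthesis enzyme *Hmgcs1* 886, 885 and 932 CPM. The genes past the limit were named after their values were seen. *Acsl3*, an acyl-CoA synthetase, had 107, 232 and 147 CPM, 2.17-fold higher in nestin-Cre, and *Scd1* and *Mvd* were 1.63-fold and 1.51-fold lower there.

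Glycolysis, glycogen and lactate genes had medians of -0.12 and 0.02, with 1 of 14 higher in nestin-Cre, 1 of 16 higher in Emx1-Cre and 0 lower. The gene was *Hk1*, hexokinase, in both, at 21.4, 40.1 and 37.7 CPM, named after its values were seen. *Aldoc*, the astrocyte aldolase, had 1916, 1855 and 1872 CPM, *Gapdh* 1747, 1352 and 1641 CPM, *Ldhb* 525, 514 and 630 CPM and *Aldoa* 494, 437 and 475 CPM. In serine, glycine and one-carbon metabolism, 0 of 7 and 0 of 8 genes passed the limit, with medians of 0.00 in both. *Dbi*, an acyl-CoA-binding protein, had 10177, 8655 and 9039 CPM, and *Phgdh*, which opens serine synthesis, 642, 644 and 619 CPM.

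Metallothioneins and redox defence had medians of -0.03 and 0.12, and 3 of 14 genes were higher in nestin-Cre and 2 of 14 in Emx1-Cre, with 0 lower. Beside *Txnip* these were *Mt1* and *Mt2* in nestin-Cre and *Mt2* in Emx1-Cre, named after their values were seen. *Mt1*, a metal-binding protein, had 1377 CPM (1325 to 1431), 2456 (2379 to 2536) and 1874 (1819 to 1931). *Mt2* had 440, 935 and 676 CPM, with log2 ratios of 1.09 (0.96 to 1.21) and 0.62 (0.50 to 0.74). *Mt3*, the growth inhibitory member of the family, went the other way with 3683, 3198 and 3139 CPM. The peroxiredoxin *Prdx6* had 830, 1145 and 1102 CPM and *Prdx1* 607, 563 and 657 CPM. Only *Mt3* among these 3 metallothionein genes was lower in both mutants than in wild-type.

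Secreted matrix and synapse-organising factors had medians of 0.12 and 0.15, with 2 of 19 genes higher and 2 lower in nestin-Cre and 1 of 21 higher and 0 lower in Emx1-Cre. *Ncan*, the neurocan core protein of perineuronal matrix, had 2634 CPM (2562 to 2708), 1461 (1401 to 1522) and 1856 (1801 to 1912), with log2 ratios of -0.85 and -0.50. The genes past the limit beside *Ncan*, *Htra1*, *Sparc*, *Gpc6* and *Tnr*, were named after their values were seen. *Htra1*, a secreted protease, had 565, 966 and 675 CPM, and *Sparc*, a collagen-binding glycoprotein, 434, 687 and 448 CPM. The glypican *Gpc6* was 1.53-fold lower in nestin-Cre, and *Tnr* was 1.59-fold higher in Emx1-Cre. *Ptn*, pleiotrophin, had 9831, 8560 and 9387 CPM, its receptor *Ptprz1* 4275, 4962 and 4859 CPM, and *Sparcl1* 2930, 3177 and 3271 CPM.

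Of genes for thyroid and glucocorticoid handling and response, 0 of 7 passed the limit in either mutant, with medians of -0.06 and -0.14. *Dio2*, which activates thyroid hormone, had 214, 182 and 209 CPM. The hormone carrier *Slco1c1* had 235, 214 and 214 CPM, the thyroid receptor *Thra* 246, 258 and 222 CPM and the glucocorticoid receptor *Nr3c1* 125, 118 and 146 CPM.

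Notch, BMP and Id genes had medians of 0.22 and 0.29, and 0 of 13 were higher and 1 lower past the limit in each mutant. The lower gene was *Hes5*, a repressor induced by Notch, with 1381 CPM (1329 to 1435), 680 (640 to 723) and 903 (865 to 942). Its log2 ratios were -1.02 (-1.13 to -0.92) and -0.61 (-0.70 to -0.53), and -0.93 and -0.57 without the astrocytes that reached another class, where Emx1-Cre was just under the limit. The Id genes, inhibitors of bHLH factors that BMP signals induce, stood the other way and under the limit. *Id3* had 2284, 2780 and 2801 CPM, *Id2* 1105, 1444 and 1515 CPM, and *Id1* 485, 654 and 606 CPM. Each of the 3 was higher in both mutants than in wild-type beyond counting error.

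Glial and dorsal transcription factors had medians of 0.20 and 0.06. Of 17 described in nestin-Cre, 1 was higher and 2 lower, and of 16 in Emx1-Cre 0 were higher and 1 lower. *Zbtb20*, a zinc finger repressor that promotes hippocampal and astrocyte fates, had 1157, 1861 and 1528 CPM and was 1.61-fold higher in nestin-Cre. Without astrocytes that reached another class its log2 ratio there was 0.47, under the limit. *Nfib* had 993, 1277 and 1149 CPM and *Nfix* 787, 901 and 851 CPM, both nuclear factors of gliogenesis. The lower genes were *Olig2* in both mutants and *Olig1*, with 688, 430 and 519 CPM, in nestin-Cre. *Sox9* had 593, 875 and 872 CPM, just under the limit at log2 ratios of 0.56 in both, and was chosen, like *Olig1*, after its values were seen.

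Reactive astrocyte genes gave no common shift. Medians were 0.25 and 0.10, and 1 of 8 genes was higher and 0 lower in each mutant, the class I gene *H2-D1* with 23.5, 36.2 and 39.4 CPM, named after its values were seen. *Gfap*, the intermediate filament gene that marks reactivity, had 632, 511 and 490 CPM, lower in both mutants. *Vim* had 526, 541 and 535 CPM, *S100a6* 217, 211 and 216 CPM and *Stat3* 111, 127 and 129 CPM. Of the 23 genes listed, 4, 3 and 3 were at 0 UMIs.

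Immediate early and dissociation stress genes had medians of 0.11 and 0.13, with 3 of 20 higher in nestin-Cre, 1 of 20 higher in Emx1-Cre and 0 lower. *Fos* had 2781, 2920 and 3038 CPM, *Jun* 1492, 1538 and 1633 CPM, *Egr1* 1024, 1123 and 1121 CPM and the chaperone *Hspa8* 1106, 1059 and 1141 CPM. The genes past the limit, named after their values were seen, were *Fosb*, *Klf4* and *Ier5* in nestin-Cre and *Ier3* in Emx1-Cre. Without astrocytes that reached another class, *Fosb* at 0.56 and *Ier5* at 0.50 were under the limit in nestin-Cre. In Emx1-Cre this setting took *Fosb* from 0.57 to 0.62, past the fold limit. Summed over the list, astrocytes had 10891, 11623 and 12094 CPM. For p53 target genes the medians were -0.19 and -0.12, with 1 of 6 higher and 0 lower in each. That gene was *Mdm2*, the ubiquitin ligase of p53, with 22.0, 38.1 and 33.0 CPM, named after its values were seen. *Rps27l* had 275, 224 and 224 CPM and *Bax* 236, 191 and 228 CPM.

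Cell cycle lists differed little between genotypes. Of S phase genes 1 of 8 was higher in nestin-Cre and 1 of 11 in Emx1-Cre, *Ubr7* in both, with 0 lower and medians of 0.07 and 0.01. *Nasp* had 99.8, 112 and 107 CPM and *Usp1* 62.2, 68.5 and 61.7 CPM. Of G2/M genes 2 of 20 were higher and 1 lower in nestin-Cre, 0 of 22 passed the limit in Emx1-Cre, and the medians were 0.03 and -0.10. *Hmgb2* had 257, 326 and 269 CPM and *Cbx5* 234, 234 and 239 CPM. The 3 genes past the limit, *Mki67* and *Cenpf* higher and *Ube2c* lower, were named like *Ubr7* after their values were seen. *Mki67*, the proliferation antigen, had 40.8, 64.0 and 42.0 CPM. Its ratio in nestin-Cre turned to -1.93 with the rule read at 1500 UMIs, to -1.62 with none of the 8 radial glia genes allowed and to 0.00 as a difference of log-normalized means. *Cenpf* turned to -0.69, -2.55 and -0.04 in the same settings and to -0.19 with 2 markers enough, so that neither call held. *Ube2c* went from -0.79 to -0.51, under the limit, without astrocytes that reached another class.

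**Figure D3:**
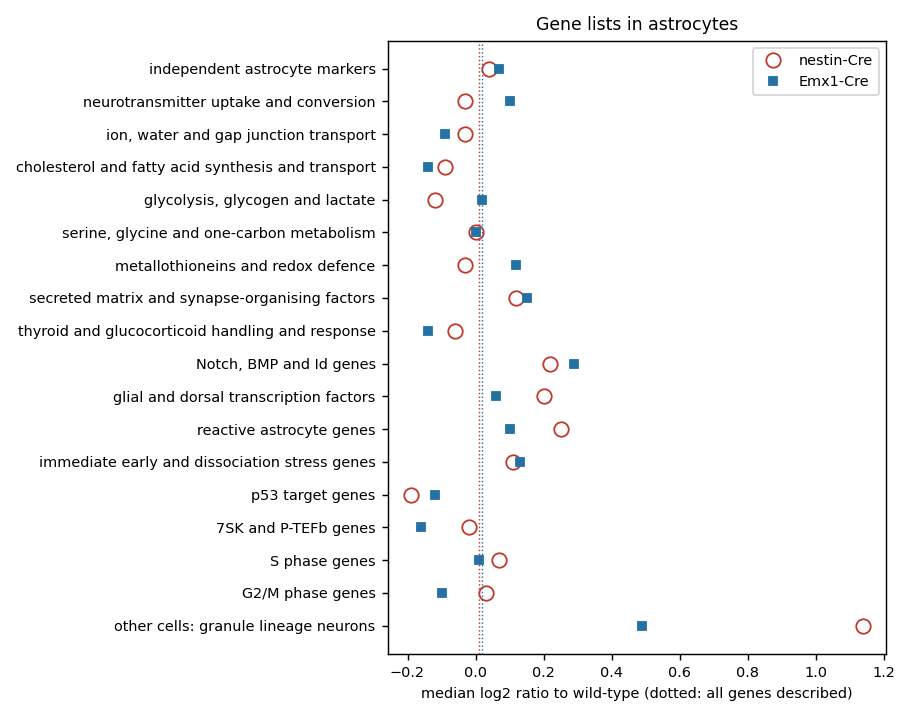
Median log2 ratio to wild-type of each gene list with at least 5 genes described, in nestin-Cre (open circles) and Emx1-Cre astrocytes (filled squares). Dotted lines are the medians over all genes described, 0.01 and 0.02.

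The mutant libraries were also set against each other. *Emx1*, a transcription factor of the dorsal telencephalon, had 31.4, 44.6 and 16.7 CPM in astrocytes, 2.67-fold higher in the library titled for nestin than in that titled for Emx1, log2 1.41 (0.83 to 2.02). With none of the 8 radial glia genes allowed, which left 49 and 66 astrocytes, this ratio was -0.01. The Emx1-Cre allele is a knock-in at *Emx1*. Against wild-type, *Emx1* had log2 ratios of -0.87, -0.68 and -1.95 in radial glia-like cells, granule lineage cells and microglia of the library titled for Emx1, and of -0.19, 0.13 and -0.90 in the library titled for nestin. *Erdr1* had 157, 169 and 65.2 CPM and *AY036118* 178, 177 and 85.7 CPM, both lowest in Emx1-Cre. The kinase gene *Csnk1g1* had 33.5, 37.5 and 18.9 CPM, and *Dcx*, a microtubule protein of young neurons, 31.4, 74.3 and 37.7 CPM. The sixth gene was *Islr2*. *Erdr1* and *AY036118* were lower in Emx1-Cre granule lineage cells too, with log2 ratios to wild-type of -0.74 and -0.80.

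Genes lower in nestin-Cre than in Emx1-Cre astrocytes were led by transcripts of vessels and blood. *Cldn5*, the endothelial tight junction gene, had 91, 4 and 114 UMIs or 47.6, 2.58 and 48.9 CPM. It was lower in nestin-Cre than in wild-type in other classes too, with log2 ratios of -2.15 in radial glia-like cells, -2.49 in microglia and -1.24 in granule lineage cells, against -0.02, 0.46 and 1.22 in Emx1-Cre. Of the astrocytes, 2, 0 and 6 also reached the endothelial marker number, and without all astrocytes that reached another class, a setting that takes out *Cldn5* with these cells, the ratio of nestin-Cre to Emx1-Cre was -0.11 in place of -4.24. *Hbb-bs* had 229, 22.6 and 178 CPM, *Hba-a1* 91.0, 6.46 and 75.5 CPM and *Hba-a2* 58.0, 7.75 and 66.5 CPM. The last pair are near-identical copies, so the division of UMIs between them is uncertain, and *Hba-a2* turned to 0.47 with at least 4 markers and to 0.71 with the rule read at 1500 UMIs. *Meg3*, an imprinted long non-coding RNA, had 22.0, 12.3 and 48.0 CPM, and *Nxt1*, an mRNA export factor, 38.7, 14.9 and 34.3 CPM. The ratio of *Meg3* between the mutants turned to 0.27 when 2 markers were enough and to 0.18 with the rule read at 1500 UMIs, so that this call did not hold. In radial glia-like cells *Meg3* stood the other way, with log2 ratios to wild-type of 1.41 in nestin-Cre and -1.92 in Emx1-Cre.

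Genes typical of other cells were measured in astrocytes with further lists. The part of RNA from other cells in the differences above was not tested. The 6 erythroid genes summed to 428, 42.0 and 355 CPM with *Hbb-bs* on top and 2, 2 and 1 genes at 0, and 4 of 4 described were lower in nestin-Cre, median -3.30, and 0 of 4 past the limit in Emx1-Cre, median -0.32. In all other cells of the libraries these genes summed to 3678, 379 and 635 CPM, so that nestin-Cre was lowest there too. The 11 microglia genes summed to 170, 107 and 133 CPM, and in nestin-Cre 0 of them had the UMIs to be described. In Emx1-Cre some had, all below wild-type, and their counts are not reported here. The 15 endothelial and mural genes summed to 176, 86.6 and 193 CPM, led by *Cldn5* in wild-type and Emx1-Cre and by *Pdgfrb*, at 45.2 CPM, in nestin-Cre, with 2, 4 and 2 at 0, 0 of 1 described past the limit in nestin-Cre and 1 of 4 higher in Emx1-Cre, medians 0.58 and 0.21. That gene was *Rgs5*, which turned to -0.54 with at least 4 markers.

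The 11 oligodendrocyte lineage genes summed to 896, 521 and 671 CPM. *Olig1* led them, *Pdgfra* was at 0 by the rule, and 2, 3 and 1 genes were at 0. *Olig1* and *Olig2* also belong to the list of glial and dorsal transcription factors, so this sum cannot be read as RNA of other cells alone. Of 2 described in nestin-Cre 2 were lower, *Olig1* and *Olig2*, median -1.08, and with none of the 8 radial glia genes allowed *Olig1* and the median there turned to 0.11. In Emx1-Cre the described genes of this list did not all go the same way, and their counts are not reported here. *Rgs5* among the mural genes was chosen after its values were seen. The 10 interneuron genes summed to 8.36, 14.2 and 34.7 CPM, led in wild-type by *Npy*, with 7, 3 and 4 genes at 0, and the 8 choroid plexus and ependyma genes to 41.8, 64.0 and 51.4 CPM, led by *Enpp2*, with 2, 1 and 2 at 0. In both lists 0 genes had the UMIs to be described.

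The sex-linked genes differed between the libraries. *Xist*, transcribed from the inactive X, had 1015, 883 and 497 CPM, and the Y-linked helicase gene *Ddx3y* 8.36, 31 and 51.9 CPM. Of 2 genes described in nestin-Cre 0 passed the limit, median 0.08, and of 3 in Emx1-Cre *Ddx3y* was higher and *Xist* lower, median -0.46, both named after their values were seen. The sexes of the pooled littermates, and their part in the other differences, were not tested.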

How the data were processed

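Single-cell RNA of P7 dentate gyrus was measured in 1 library of each of 3 genotypes, from 3 to 4 gyri each. The values the authors deposited are Cell Ranger count values, whole UMIs of 27998 genes in each barcode of 10x Genomics 3′ libraries, without normalization. The header of the matrices names version 4.0.0 and the study's methods another one. The labels give the library protocol as V2 and the reagent kit as v3.1. None of the sources used here names the genome build of these counts. Neurosphere RNA, ATAC-seq and CUT&Tag were not used here.

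Cells needed over 500 genes and under 15% of UMIs from mitochondrial genes. Doublets were neither called nor removed, and leaving out astrocytes that met the marker number of microglia, endothelial cells, interneurons or granule lineage neurons was an alternative. UMIs were summed over the astrocytes of each library and divided by their total (CPM). Ratios have exact conditional binomial intervals, sums exact Poisson intervals, shares exact binomial intervals, and medians over cells order-statistic intervals. Described genes had at least 100 UMIs over the libraries compared, and 1.5-fold was the limit (2-fold in all 3 libraries against radial glia-like cells). The members and lists were chosen with earlier results of these data known. The 26 lists are those given in the results, the radial glia genes of the rule being one of them, and several share genes. Results of some single genes are not reported here. Comparison classes needed at most 2 astrocyte markers and a number of their own markers.

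Named genes were the 12 highest and 12 lowest by the smaller of both mutant ratios (without mitochondrial, ribosomal, haemoglobin and sex-linked genes), the 6 highest and 6 lowest between mutants, the 12 highest against all other cells, the 8 highest and 8 lowest against radial glia-like cells, the genes of the rule, the 7SK and P-TEFb genes, and up to 4 of the most abundant genes of a list. For ordering, counts under 3 were set to 3. After the data were seen, genes against all other cells also had to have 100 UMIs, and the order against radial glia-like cells was carried on outside the rule. The 15 alternatives change the marker numbers, the cell filter, the depth, mixed cells, the total, the centring, the minimum of UMIs, the fold and the scale. Leaving out cells under 1500 UMIs without thinning was added after the data were seen. The calculation was tested on simulated counts. Python 3.11.15, numpy 2.4.6, scipy 1.17.1, pandas 2.3.3 and matplotlib 3.10.9 were used.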

Additional observations from a re-analysis of the deposited data

How the results depend on the processing

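Each of 15 alternatives was run, and another was added after the data were seen. No paired analysis was possible because each genotype had 1 library. Over the alternatives, 324 ratios of named genes gave 4717 values, of which 3905 lay within the interval of the reported value, 773 outside it and 39 with the other sign. For 45 list medians, 647 values gave 594, 52 and 1. These were set against the median lower and median upper bound of the genes of the list, which is not an interval of the median itself. The other sign was counted only where the reported value was at least 1.5-fold from wild-type or the compared cells, and smaller values that crossed 0 are among those within or outside the interval. Differences of mean log-normalized values, which are on another scale, were set against the same intervals and bounds and are among these counts. For the 15 results on shares, depth, *Larp7* and numbers of genes, 107 of 183 values were within the interval, or within 1.5 times for numbers of genes, and 76 were not. The cause of each difference below was not tested, except where the setting itself makes the number smaller or larger. Numbers of genes are given as higher and lower.

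At 2-fold, which makes the numbers smaller by its construction, there were 32 and 16 genes in nestin-Cre against wild-type, 18 and 10 in Emx1-Cre against wild-type, and 3 and 8 in nestin-Cre against Emx1-Cre. The reported numbers are 255 and 139, 165 and 92, and 92 and 71. With at least 300 UMIs they were 43 and 33, 13 and 17, and 11 and 5, and 225 and 275 against radial glia-like cells, where 339 and 494 are reported. With at least 50 UMIs they were 585 and 329, 444 and 252, and 283 and 228. As differences of mean log-normalized values, with a limit of 0.25, they were 46 and 32, 30 and 13, and 10 and 4. *Larp7* then differed by -0.09 in nestin-Cre and -0.07 in Emx1-Cre, on a scale that is not a log2 ratio. *Cenpf* turned to -0.04 and *Mki67* to 0.00 in nestin-Cre, and *Tubb3* to -0.04 in Emx1-Cre.

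With cells under 1500 UMIs left out and not thinned, the added alternative, the wild-type share was 6.81%. With the remaining cells thinned to 1500 UMIs before the rule was read, the shares of astrocytes were 2.77%, 2.00% and 2.76% in wild-type, nestin-Cre and Emx1-Cre. The numbers were 72 and 62 in nestin-Cre, 71 higher in Emx1-Cre, and 38 and 23 between the mutants. In nestin-Cre *Bhlhe22* turned to -0.64, *C030037D09Rik* to 0.43, *C1qc* to 2.67, *Cenpf* to -0.69, *Meg3* to 0.12, *Mki67* to -1.93, *S100b* to 0.14 and *Sema3c* to -1.16. In Emx1-Cre *C1qc* turned to 2.75 and *Meg3* to -0.06. Between the mutants *Hba-a2* turned to 0.71 and *Meg3* to 0.18.

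With astrocytes thinned to 1500 UMIs before summing, the numbers were 69 and 57 in nestin-Cre, 46 and 45 in Emx1-Cre, and 32 and 19 between the mutants. *Npy* and *Pcbd2* turned to 0.07 in nestin-Cre, and *Izumo4* to 0.00 and *Pcbd2* to 0.38 in Emx1-Cre.

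With none of the 8 radial glia genes allowed, 52, 49 and 66 astrocytes were left, the shares were 0.473%, 0.733% and 1.01%, and the ratios of median UMIs to wild-type were 1.5 and 1.55. The numbers were 30 and 44 in nestin-Cre, 31 and 18 in Emx1-Cre, 11 and 17 between the mutants, and 219 and 179 against radial glia-like cells. *Larp7* had 3, 0 and 1 UMIs and no ratio. In nestin-Cre *Cenpf* turned to -2.55, *Mki67* to -1.62, *Olig1* and with it the median of the oligodendrocyte lineage list to 0.11, and *Slc13a3* to 0.45. In Emx1-Cre *Csnk1g1* turned to 0.97, *Emx1* to 0.20, *Fam212b* to 0.01, *Ntsr2* to -0.37, *Pcbd2* to 0.39 and *Snx32* to 0.20. Between the mutants *Emx1* turned to -0.01, and against radial glia-like cells *Tmem132c* turned to 0.35 and *Wipf3* to 0.12. With any number of the 8 allowed, the shares were 4.70%, 5.92% and 8.54%, 384 genes were higher in nestin-Cre, 327 lower than in radial glia-like cells, and *Meg3* turned to 1.48 in nestin-Cre.

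With at least 2 markers the shares were 8.30%, 6.96% and 10.1%, the ratios of median UMIs 1.38 and 1.44, and 148 genes were lower in Emx1-Cre. In nestin-Cre *Cenpf* turned to -0.19 and *Meg3* to 2.48, and between the mutants *Meg3* turned to 0.27. With at least 4 markers the shares were 2.09%, 2.95% and 4.20%, 168 genes were higher in nestin-Cre and 51 higher than in Emx1-Cre. *Hba-a2* turned to 0.47 between the mutants and *Rgs5* to -0.54 in Emx1-Cre. The wild-type share was 7.13% with a higher minimum of genes per cell and 3.61% with a lower one. Without astrocytes that also met another class, the shares were 4.08% in nestin-Cre and 6.43% in Emx1-Cre, and *Tubb3* turned to -0.33 in Emx1-Cre.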
